A study of Drosophila melanogaster with 42 samples.

Results

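The nuclear genes of the mitochondrial respiratory chain were taken as the protein-coding genes on X, 4, 2 and 3 whose symbols start with ND-, UQCR-, COX and a digit, or ATPsyn. The rule found 80 of 13922 protein-coding genes in the RefSeq gene table of the dm6 assembly. Of these, 12 lie on X, 66 on chromosomes 2 and 3, and 2 on chromosome 4. By symbol, 40 belong to complex I, 9 to complex III, 16 to complex IV and 15 to complex V. Among the 80 are 21 copies, whose symbols are that of another subunit gene followed by L or by L and a digit, and every copy lies on chromosome 2 or 3.

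The study followed dosage compensation of the X chromosome in whole Drosophila melanogaster embryos by ChIP-seq, with 26 ChIP and 16 input samples. The older embryos were collected at 11-12 h and the younger at 3-4 h. At each age, ChIP of MSL2, of MOF and of H4K16ac (acetyl-lysine 16 of histone H4) was done on 3 samples each of formaldehyde-fixed chromatin cut with micrococcal nuclease (MNase), at 2.9 units per g of embryo at 11-12 h and 0.9 units at 3-4 h. Sonicated chromatin was used for a second H4K16ac measurement and for H3K36me3 (trimethyl-lysine 36 of histone H3), with 2 samples each per age.

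The labels give no strain, sex or cell type, so each region stands for a mixture of all cells of the embryo. MNase dose and age differed together and cannot be told apart. What was analysed is 12 deposited lists of regions, 1 for each mark, chromatin preparation and age, with MSL2 on MNase chromatin listed apart for mononucleosomal and subnucleosomal fragments. A list holds start and end coordinates with no score or read count, and its label names it for all samples of its group. The depth behind a region is therefore unknown, no difference between ages or chromosomes could be tested against the spread between samples, and every count below is a description.

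The respiratory chain sits in the inner mitochondrial membrane. Complex I passes electrons from NADH to ubiquinone, complex III hands them to cytochrome c, complex IV passes them to oxygen, and complex V, the ATP synthase, makes ATP from the proton gradient. Most subunits are encoded in the nucleus and a few core subunits on the mitochondrial chromosome, so the complexes are built from genes on X, on the autosomes and in the organelle. In male flies the MSL complex, with MSL2 as its male-specific subunit, binds the X chromosome, and its acetyltransferase MOF places H4K16ac there. MOF also acts in a second complex at promoters on all chromosomes, and H3K36me3 is a mark of the bodies of transcribed genes.

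The chromosomal split of the lists was as follows. Of the 319 regions of mononucleosomal MSL2 at 11-12 h, 310 lie on X, and at 3-4 h 238 of 247 do. For MOF, 526 of 613 regions at 11-12 h and 475 of 517 at 3-4 h lie on X. H4K16ac regions from MNase chromatin were 834 on X and 996 on chromosomes 2 and 3 at 11-12 h, against 863 and 646 at 3-4 h. Those from sonicated chromatin were 881 on X and 1425 on chromosomes 2 and 3 at 11-12 h, against 803 and 2043 at 3-4 h.

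X-linked members carried H4K16ac nearly throughout. On MNase chromatin, 12 of 12 shared at least 1 base with an H4K16ac region at 11-12 h and 11 of 12 at 3-4 h, where 74.5% and 59.1% of all X-linked protein-coding genes did. On sonicated chromatin it was 12 of 12 at both ages, beside 68.1% of X-linked genes at 11-12 h and 59.2% at 3-4 h. The median gene body cover, the percent of a gene's length under regions, was 100% for the members in each of these 4 lists. Over all X-linked genes, with or without a region, it was 100% at 11-12 h and 39.9% at 3-4 h on MNase chromatin, and 79.7% and 29.0% at those ages on sonicated chromatin. Over X-linked genes with a region alone it was 100% and 94.9% on MNase chromatin, and 100% and 93.8% on sonicated chromatin. Per marked gene the members were thus close to X-linked genes at large.

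MOF lay on 12 of 12 X-linked members at 11-12 h and on 9 of 12 at 3-4 h, where 54.7% and 48.5% of X-linked genes had a MOF region. H3K36me3 was listed over 11 of 12 at both ages, beside 55.5% of X-linked genes at 11-12 h and 53.8% at 3-4 h. MSL2 itself was seldom on the members: its mononucleosomal regions touched 2 of 12 at 11-12 h and 3 of 12 at 3-4 h, beside 20.6% and 17.8% of X-linked genes. Subnucleosomal MSL2 regions touched 1 of 12 at each age, beside 6.78% of X-linked genes at 11-12 h and 5.05% at 3-4 h. The shares of the members therefore lay above those of all X-linked genes for H4K16ac, MOF and H3K36me3, and near them for MSL2, with no test of that difference.

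**Figure D1:**
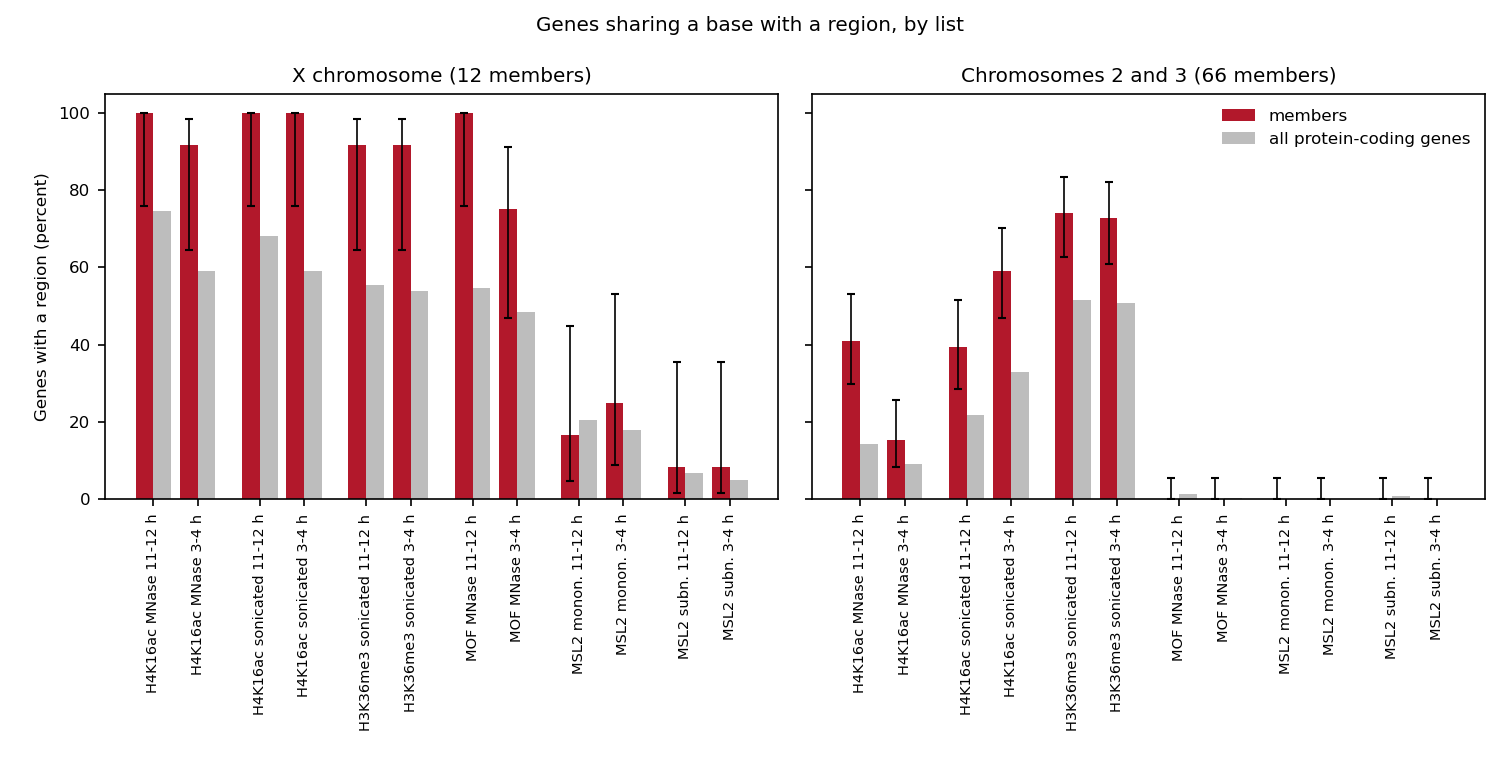
Percent of genes that share a base with a region (y axis) in each of the 12 lists (x axis), members in red beside all protein-coding genes in grey, X chromosome on the left and chromosomes 2 and 3 on the right; error bars are Wilson 95% intervals of the members' share and cover counting error only (monon., mononucleosomal; subn., subnucleosomal). The 12 X-linked members reach 100% for H4K16ac and MOF at 11-12 h, and the 66 members on chromosomes 2 and 3 have no MOF or MSL2 region.

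The 9 X-linked genes of complex I differed in how evenly they were covered. ND-75, which encodes a large iron-sulfur subunit of the arm that takes up electrons (X, 8248651 to 8251687), had 100% H4K16ac and MOF cover in all lists of these marks and 99.8% and 100% H3K36me3 cover at 11-12 h and 3-4 h. It was also 65.7% under a mononucleosomal MSL2 region at 11-12 h and 49.9% at 3-4 h. ND-20 (X, 15985473 to 15986808) and ND-18 (X, 19492421 to 19493337), whose products belong to the same arm, were 100% covered by H4K16ac, H3K36me3 and MOF at both ages and had no MSL2 region over the gene, although a mononucleosomal one came within 0.285 kb of ND-18 at 11-12 h.

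Near-complete cover was also found at ND-24, a further iron-sulfur subunit of that arm (X, 17632089 to 17633509), with 100% H4K16ac on MNase chromatin at 11-12 h and 96.6% at 3-4 h, and 98.9% and 87.9% H3K36me3 at those ages. ND-B18 (X, 15063733 to 15064926), an accessory subunit of the membrane arm, had 100% cover in these lists except for 98.6% H4K16ac on MNase chromatin at 3-4 h. ND-B14.5A, another accessory subunit (X, 2172526 to 2173432), was fully covered by H4K16ac, H3K36me3 and MOF at both ages, and a mononucleosomal MSL2 region reached 3.75% of it at 3-4 h and none of it at 11-12 h. These genes looked alike at both ages, since most of them were already covered at 3-4 h.

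The remaining genes of complex I on X varied with age. ND-B16.6, an accessory subunit (X, 6349016 to 6350401), was fully covered by H4K16ac and H3K36me3 at both ages, while MOF covered 88.0% of it at 11-12 h and 0% at 3-4 h. ND-ASHI, a membrane arm subunit (X, 6677262 to 6679118), had 100% H4K16ac cover on MNase chromatin at 11-12 h and 56.1% at 3-4 h, 100% and 81.2% on sonicated chromatin, and 80.6% and 82.5% MOF cover. It overlaps Fum1, which encodes fumarase of the citric acid cycle, so part of its cover cannot be told apart from that of Fum1.

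ND-MNLL, also of the membrane arm (X, 7893053 to 7893798), stood apart from the other 11. On MNase chromatin H4K16ac covered 100% of it at 11-12 h and 0% at 3-4 h, while on sonicated chromatin the cover was 100% at both ages. MOF covered 59.9% of it at 11-12 h and 0% at 3-4 h, and H3K36me3 0% at both ages. The gene lies within CG45089, whose coordinates the table gives as the same, so the regions belong to both entries alike.

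ND-MNLL was the only X-linked member with H4K16ac on MNase chromatin at 11-12 h only, a pattern of 15.4% of X-linked genes. MOF was listed at 11-12 h only on 3 members, ND-B16.6, ND-MNLL and UQCR-14, where 6.96% of X-linked genes had that pattern. No X-linked member had MOF or H4K16ac at 3-4 h only, a pattern seen at 0.819% of X-linked genes for MOF, 0.0455% for H4K16ac on MNase chromatin and 0.546% on sonicated chromatin. For the 3 members without MOF at 3-4 h, the nearest MOF region at that age began 8.14 kb from ND-B16.6, 0.117 kb from ND-MNLL and 1.02 kb from UQCR-14, so a MOF region at 3-4 h ended just outside ND-MNLL.

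The other 3 complexes have 1 X-linked member each. UQCR-14 of complex III (X, 16286288 to 16286988), whose gene lies inside CG32576, was fully covered by H4K16ac and H3K36me3 at both ages and by MOF at 11-12 h, with 0% MOF at 3-4 h. COX6B, a small subunit of complex IV (X, 19740537 to 19744335), had 100% MOF cover at both ages and 70.7% mononucleosomal MSL2 cover at 11-12 h against 69.1% at 3-4 h. It was the only member with a subnucleosomal MSL2 region, at 5.26% of the gene at both ages, and the regions of the 2 ages do not overlap: 19741560 to 19741759 at 11-12 h and 19741231 to 19741430 at 3-4 h.

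ATPsyndelta, part of the central stalk of complex V (X, 10212970 to 10217393), was covered in part in several lists. H4K16ac on MNase chromatin covered 100% of it at 11-12 h with 1 region and 74.2% at 3-4 h with 2 regions that left a gap inside the gene. MOF covered 45.2% at 11-12 h and 40.1% at 3-4 h, and H3K36me3 57.2% and 65.3%. At 4424 bp it is also the longest of the 12, whose median length is 1361 bp against 2520 bp over all X-linked genes.

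**Figure D2:**
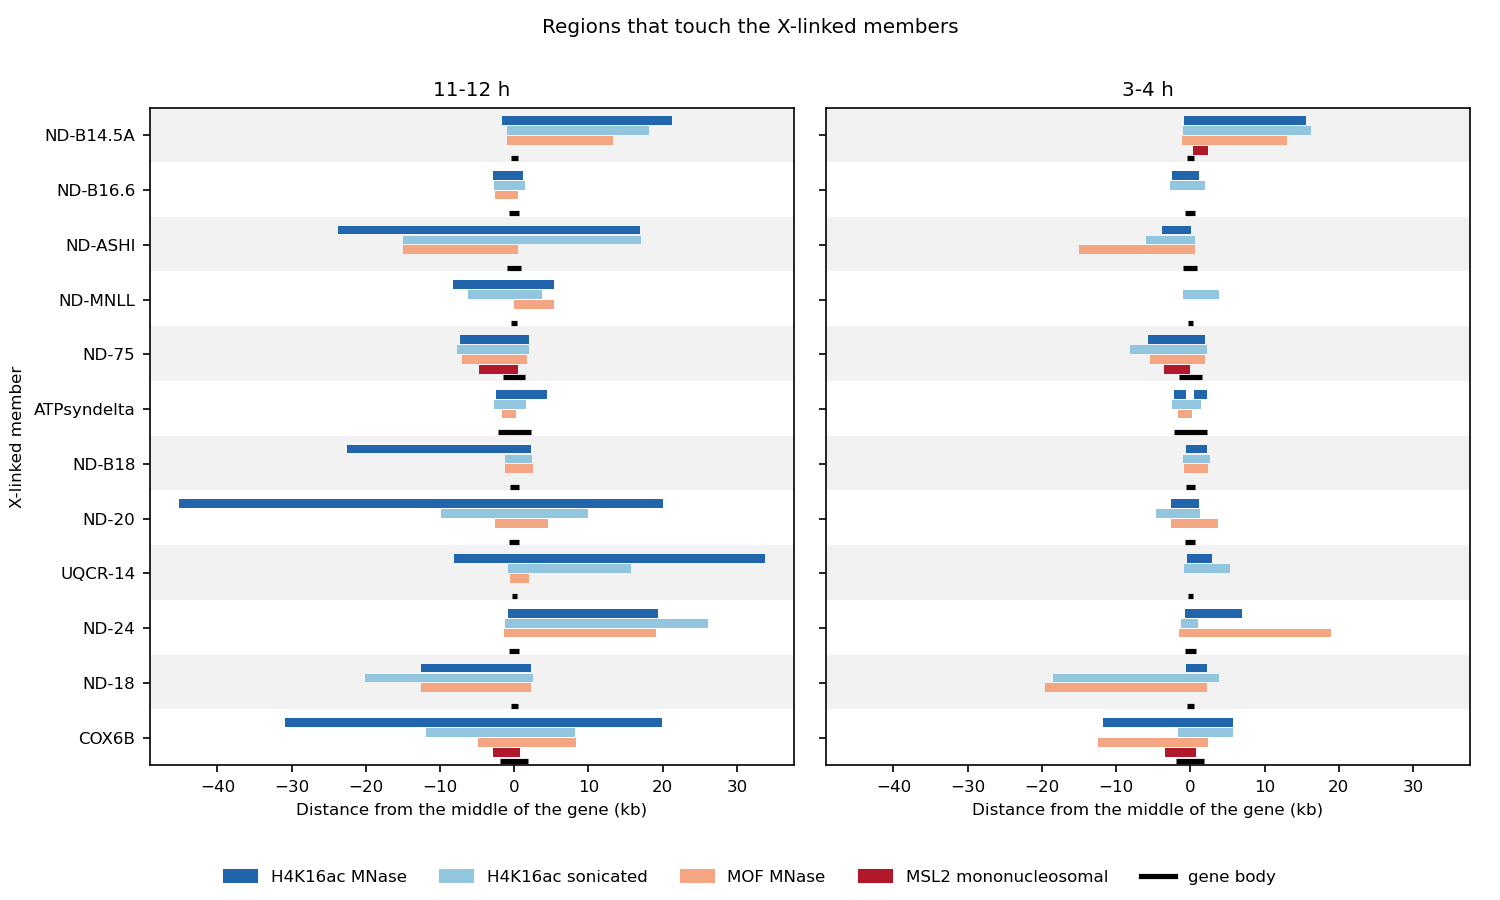
Regions of H4K16ac, MOF and mononucleosomal MSL2 that touch each X-linked member, drawn by distance from the middle of the gene in kb (x axis), with 11-12 h on the left and 3-4 h on the right and the gene body in black. On MNase chromatin the H4K16ac regions are wider at 11-12 h, up to 65.1 kb at ND-20, than at 3-4 h, where the widest is 17.5 kb at COX6B.

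H4K16ac regions over the X-linked members were wider at 11-12 h than at 3-4 h on MNase chromatin, at 11 of the 11 members with a region at both ages and at 1275 of 1298 X-linked genes. The widest H4K16ac region touching each member had a median width of 21616 bp at 11-12 h and 3709 bp at 3-4 h on MNase chromatin, and 17803 bp and 6064 bp on sonicated chromatin. Taken in the same way over all X-linked genes with a region, the medians were 20520 bp and 6158 bp on MNase chromatin and 10479 bp and 6562 bp on sonicated chromatin. The members' regions on MNase chromatin at 11-12 h were thus about as wide as those on X-linked genes at large.

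The region over ND-20 illustrates the change in extent. It ran from 15941005 to 16006135 at 11-12 h and touched 13 protein-coding genes, against 15983564 to 15987272 and 4 genes at 3-4 h. At UQCR-14 the corresponding regions were 41.8 kb and 3.48 kb wide, and at COX6B 50.7 kb and 17.5 kb. Widths at the 2 ages were closer at ND-B16.6, with 4.02 kb at 11-12 h and 3.56 kb at 3-4 h, at ND-75, with 9.27 kb and 7.69 kb, and at ND-B14.5A, with 23.0 kb and 16.4 kb.

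For MOF the median width of the widest region over the members touched was 7964 bp at 11-12 h over 12 members and 14132 bp at 3-4 h over 9, where all X-linked genes with MOF had 9042 bp and 9086 bp. H3K36me3 regions had medians of 4340 bp and 3772 bp over the members, beside 4376 bp and 4668 bp over X-linked genes. The 2 MOF medians of the members rest on different genes, since 3 members had no MOF region at 3-4 h. Over the 9 members with MOF at both ages the medians were 13.2 kb at 11-12 h and 14.1 kb at 3-4 h, and the region was wider at 11-12 h at 6 of the 9.

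Mononucleosomal MSL2 touched few of the X-linked members and lay within 16.7 kb of each. The nearest mononucleosomal MSL2 region lay at a median of 3.50 kb at 11-12 h and 3.38 kb at 3-4 h, with 0 to 16.2 kb and 0 to 16.7 kb as the extremes, and over all X-linked genes at a median of 6.99 kb and 10.9 kb. ND-B16.6 was the farthest at both ages. The nearest subnucleosomal region lay up to 156 kb away at 11-12 h and 321 kb at 3-4 h, the first at ND-MNLL and the second at UQCR-14.

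Most X-linked members had H4K16ac, H3K36me3 and MOF at both ends. A gene end counted as marked where a region came within 500 bp of it, and since the gene table gives no strand, the ends are the lower and the higher coordinate. H4K16ac marked both ends of 12 of 12 at 11-12 h and 11 of 12 at 3-4 h on MNase chromatin, beside 64.8% and 42.8% of X-linked genes. On sonicated chromatin it marked both ends of 11 at each age, beside 55.4% of X-linked genes at 11-12 h and 42.7% at 3-4 h, and ATPsyndelta had its lower end alone at both ages.

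For H3K36me3 both ends were marked at 9 of 12 at each age, beside 36.1% of X-linked genes at 11-12 h and 35.3% at 3-4 h. ND-ASHI and ATPsyndelta had the lower end alone and ND-MNLL the higher end alone, each at both ages. MOF marked both ends of 11 of 12 at 11-12 h and 8 of 12 at 3-4 h, beside 39.6% and 33.9% of X-linked genes. Mononucleosomal MSL2 marked 1 end of 3 of 12 at each age, beside 15.0% of X-linked genes at 11-12 h and 12.5% at 3-4 h. The windows span a whole gene of 1000 bp or less, as at 4 of the 12 X-linked members and 31 of the 66 on chromosomes 2 and 3, so for those genes a region at both ends says little more than a region over the gene.

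On chromosomes 2 and 3 the members had no MSL2 or MOF region, and H4K16ac was listed on a part of them. MOF touched 0 of 66 at both ages, beside 1.22% of genes on these chromosomes at 11-12 h and 0.395% at 3-4 h. Mononucleosomal MSL2 touched 0 of 66, beside 0.0687% and 0.0515%, and subnucleosomal MSL2 0 of 66, beside 0.756% and 0.0429%. With shares this low over all genes, 66 members would hold few or no such genes in any case.

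H4K16ac on MNase chromatin was listed over 27 of 66 at 11-12 h and 10 of 66 at 3-4 h, where 14.2% and 9.01% of genes on chromosomes 2 and 3 had it. On sonicated chromatin the counts ran the other way, 26 of 66 at 11-12 h and 39 of 66 at 3-4 h, where 21.9% and 32.9% of genes had it. H3K36me3 was listed over 49 of 66 at 11-12 h and 48 of 66 at 3-4 h, where 51.5% and 50.8% of genes had it. The direction between ages was thus opposite for the 2 preparations of H4K16ac, for the members as for all genes, and close to even for H3K36me3.

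Members without H3K36me3 on chromosomes 2 and 3 were mainly copies, 17 of 17 at 11-12 h and 16 of 18 at 3-4 h. Of those without H4K16ac on MNase chromatin, 17 of 39 were copies at 11-12 h and 21 of 56 at 3-4 h. On sonicated chromatin it was 21 of 40 at 11-12 h and 18 of 27 at 3-4 h. Without the copies, 45 members remained on chromosomes 2 and 3. Of these, 45 had H3K36me3 at 11-12 h and 43 at 3-4 h, beside 51.5% and 50.8% of genes there. H4K16ac lay over 23 of the 45 at 11-12 h and 10 at 3-4 h on MNase chromatin, beside 14.2% and 9.01% of genes there. On sonicated chromatin it lay over 26 and 36, beside 21.9% and 32.9%. No member outside the copies was missing from all 12 lists, a share that was not counted over all genes.

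**Figure D3:**
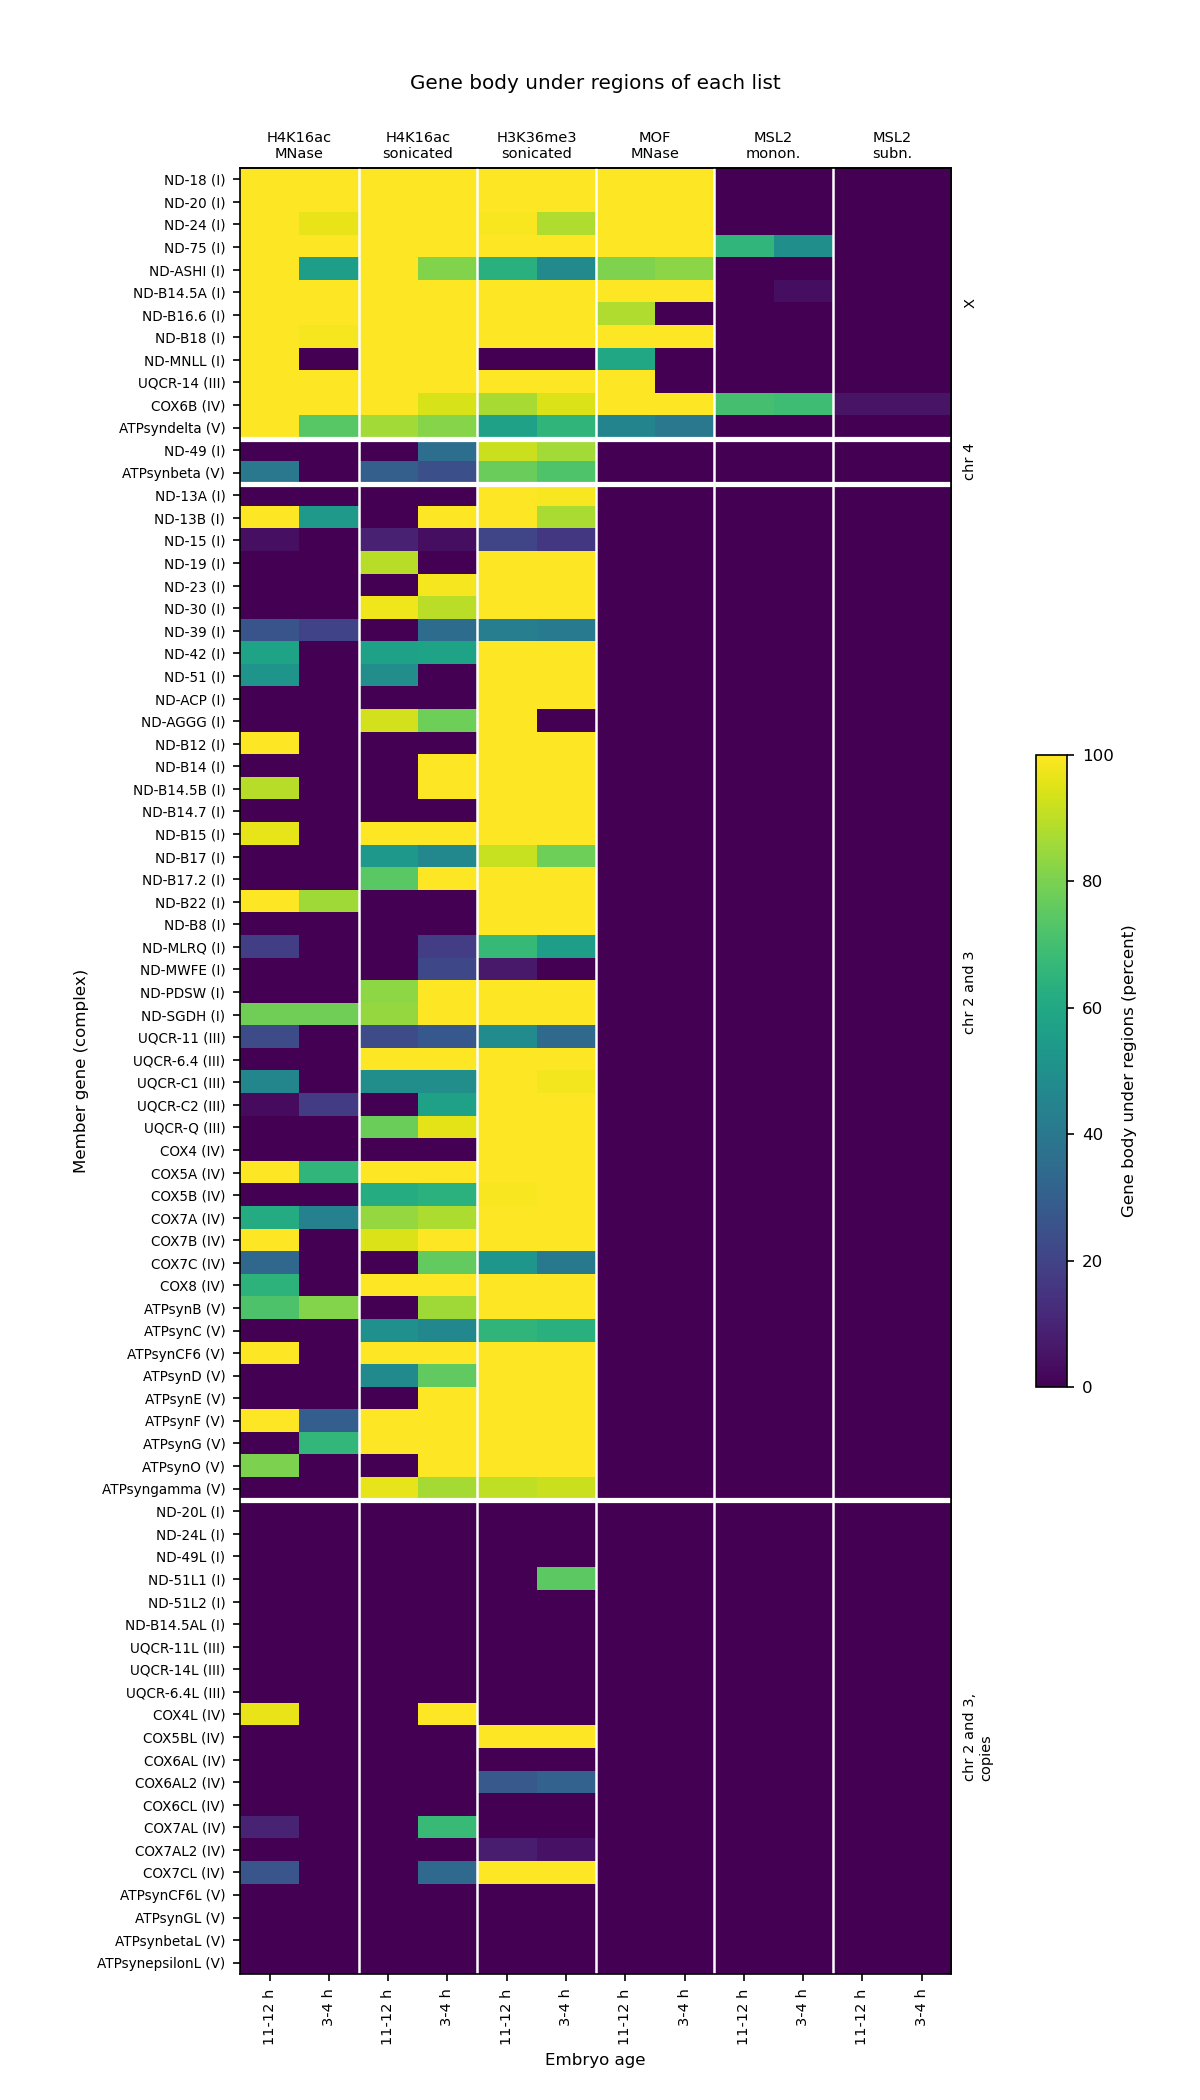
Percent of the gene body under regions (colour scale) for each of the 80 members (rows, with the complex in parentheses) in each of the 12 lists (columns, 11-12 h left of 3-4 h within each mark); white lines part the genes on X, on chromosome 4, on chromosomes 2 and 3, and the copies. The X-linked rows are filled for H4K16ac, H3K36me3 and MOF, the rows of chromosomes 2 and 3 mainly for H3K36me3, and most rows of the copies are at 0.

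Complex I has 24 genes on chromosomes 2 and 3 that are not copies. On MNase chromatin H4K16ac was listed over 11 of them at 11-12 h and 4 at 3-4 h, beside 14.2% and 9.01% of genes on these chromosomes. On sonicated chromatin it was listed over 11 and 16 of the 24, beside 21.9% and 32.9%. ND-SGDH, an accessory subunit of the membrane arm (3L, 12137496 to 12138584), was the only one of them in all 4 H4K16ac lists, with 78.4% cover at both ages on MNase chromatin and 84.0% at 11-12 h against 100% at 3-4 h on sonicated chromatin. ND-51, which binds the flavin that accepts electrons from NADH (2L, 6060842 to 6062757), had H4K16ac at 11-12 h in both preparations, 51.8% and 49.4% of the gene, and 0% in both at 3-4 h. No other member on chromosomes 2 and 3 had H4K16ac at 11-12 h only in both preparations.

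Several genes of complex I had H4K16ac over the gene body in 1 preparation only. ND-B12 (2R, 21658078 to 21658777) was 100% covered at 11-12 h on MNase chromatin and at 0% in the other 3 H4K16ac lists. ND-B22 (2L, 13370103 to 13371110) had 100% at 11-12 h and 85.6% at 3-4 h on MNase chromatin and 0% on sonicated chromatin at both ages. The reverse was seen at ND-30, an iron-sulfur arm subunit (3L, 3158485 to 3159578), with 97.9% and 89.6% on sonicated chromatin and 0% on MNase chromatin. A region of the other preparation came within 500 bp of an end of each gene. On sonicated chromatin it marked the higher end of ND-B12 at 3-4 h and the lower end of ND-B22 at both ages. On MNase chromatin it marked the higher end of ND-30 at 11-12 h. The 0% thus refers to the gene body alone.

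H3K36me3 covered most of these genes wholly, with 2 exceptions in time. ND-AGGG (3L, 24976254 to 24977118) had 100% H3K36me3 cover at 11-12 h and 0% at 3-4 h, although H4K16ac on sonicated chromatin covered 93.2% and 77.9% of it at those ages. ND-MWFE (2R, 13158666 to 13160190) had 6.75% at 11-12 h and 0% at 3-4 h, with H4K16ac on sonicated chromatin at 0% and 21.6%. The 6.75% was the edge of a 4.05 kb region that reached 3951 bp beyond the gene. H3K36me3 came within 500 bp of the higher end of ND-MWFE at both ages, and the gene shares bases with TppII and Nrk. ND-AGGG and ND-MWFE were the only members outside the copies on chromosomes 2 and 3 with H4K16ac and no H3K36me3 over the gene at the same age. Both were so at 3-4 h, and at 11-12 h there was none.

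In complex III, all 5 genes outside the copies on chromosomes 2 and 3 had H3K36me3 at both ages, beside 51.5% of genes there at 11-12 h and 50.8% at 3-4 h. H4K16ac was listed over 3 at 11-12 h and 1 at 3-4 h on MNase chromatin, beside 14.2% and 9.01% of genes there. On sonicated chromatin it was listed over 4 and 5, beside 21.9% and 32.9%. The core protein gene UQCR-C1 (3R, 14890231 to 14892387) had 46.0% and 0% on MNase chromatin and 49.5% and 49.6% on sonicated chromatin at 11-12 h and 3-4 h. The other core protein gene, UQCR-C2 (3L, 16584124 to 16586111), had 3.02% and 17.3% on MNase chromatin and 0% and 57.4% on sonicated chromatin. At 11-12 h, H4K16ac on sonicated chromatin still came within 500 bp of both ends of UQCR-C2, which shares bases with Syx8. Cover of the gene body thus differed between the 2 core genes in both preparations.

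Complex IV has 7 such genes, all with H3K36me3 at both ages, beside 51.5% of genes on chromosomes 2 and 3 at 11-12 h and 50.8% at 3-4 h. COX5A (3R, 11819359 to 11820299), which encodes a matrix-side subunit, and COX7A (3R, 8339944 to 8341043), which encodes a small membrane subunit, were in all 4 H4K16ac lists, COX5A with 100% at 11-12 h and 65.9% at 3-4 h on MNase chromatin and 100% at both ages on sonicated chromatin. COX7B (3L, 17425477 to 17426282) had 100% at 11-12 h and 0% at 3-4 h on MNase chromatin, while sonicated chromatin gave 94.7% and 100%. COX4 (2L, 19958713 to 19960065), the gene of a large nuclear-encoded subunit, had 100% H3K36me3 cover at both ages and no H4K16ac region in any list.

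The 9 genes of complex V outside the copies on chromosomes 2 and 3 all had H3K36me3 at both ages, beside 51.5% of genes there at 11-12 h and 50.8% at 3-4 h. On sonicated chromatin all 9 had H4K16ac at 3-4 h, against 6 at 11-12 h, beside 32.9% and 21.9% of genes. ATPsynF (2R, 24599088 to 24599821), of the membrane part, was in all 4 H4K16ac lists, with 100% at 11-12 h and 29.8% at 3-4 h on MNase chromatin. ATPsynCF6 (3R, 23355220 to 23356064), of the peripheral stalk, had 100% and 0% there and 100% at both ages on sonicated chromatin. ATPsynG (2L, 10975522 to 10976399) was the only member with H4K16ac on MNase chromatin at 3-4 h only, at 66.4% of the gene and 0% at 11-12 h, where 3.19% of genes on chromosomes 2 and 3 had that pattern.

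Between the ages, 18 of the 66 members on chromosomes 2 and 3 had H4K16ac on MNase chromatin at 11-12 h only, beside 8.37% of genes there, 9 at both ages and 38 at neither. On sonicated chromatin 2 of 66, ND-51 and ND-19, had it at 11-12 h only, beside 2.34% of genes, and 15 of 66 at 3-4 h only, beside 13.4%, with 24 at both. For H3K36me3, 2 of 66 had it at 11-12 h only, beside 2.84% of genes, and 1 of 66, the copy ND-51L1, at 3-4 h only, beside 2.11%. Members with H4K16ac at 11-12 h only on MNase chromatin, at 18 of 66, and those with it at 3-4 h only on sonicated chromatin, at 15 of 66, were the main groups that differed with age. A shared base was enough to count. Among the 18, COX7AL2 had 0.223% cover and ND-15 3.95%, and COX7C and COX7CL were touched by the same region. A region could also lie just outside a gene at the age without cover. It came within 500 bp of COX7B, COX7AL and ND-42 of the 18 at 3-4 h, and of UQCR-C2 of the 15 at 11-12 h.

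**Figure D4:**
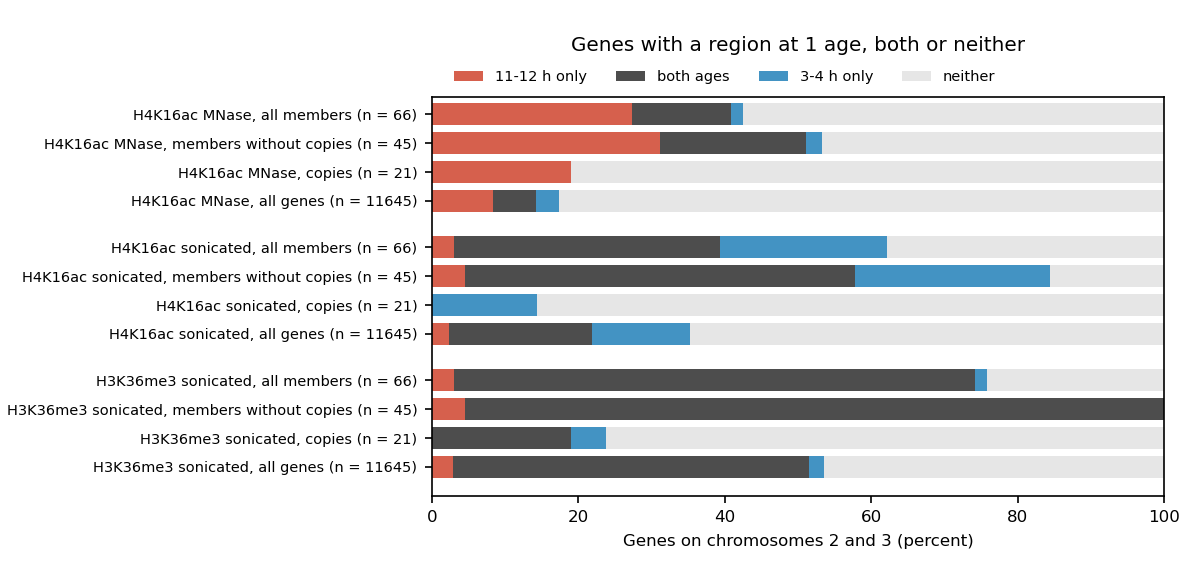
Percent of genes on chromosomes 2 and 3 (x axis) with a region at 11-12 h only, at both ages, at 3-4 h only or at neither, for the 66 members, the 45 members without copies, the 21 copies and all 11645 protein-coding genes, for the 3 marks listed over these members. The red part is wide for H4K16ac on MNase chromatin, with 18 of 66 members, and the blue part for sonicated chromatin, with 15 of 66.

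These groups share 7 of the 66 genes, which had H4K16ac on MNase chromatin at 11-12 h only and on sonicated chromatin at 3-4 h only, beside 1.64% of genes on chromosomes 2 and 3. They are ND-B14.5B, ND-MLRQ, COX7C, ATPsynO and the copies COX4L, COX7CL and COX7AL. COX7C and its neighbour COX7CL were touched by the same region in each preparation, so they are not separate cases. COX7AL had 10.1% cover on MNase chromatin at 11-12 h, from a region that also reaches COX7A. ND-B14.5B, an accessory subunit of complex I (2L, 3144953 to 3145848), had 89.1% at 11-12 h and 0% at 3-4 h on MNase chromatin against 0% and 100% on sonicated chromatin. ATPsynO, which joins the peripheral stalk to the catalytic head (3R, 15265591 to 15266690), had 80.1% and 0% against 0% and 100%. At these 7 genes the age at which H4K16ac was listed was thus opposite in the 2 preparations, and the difference was not tested.

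Agreement between the preparations was partial at either age. At 11-12 h 13 of the 66 members had H4K16ac in both preparations, 14 on MNase chromatin alone and 13 on sonicated chromatin alone, beside 10.4%, 3.78% and 11.4% of genes on chromosomes 2 and 3. At 3-4 h the counts were 9, 1 and 30, beside 8.18%, 0.833% and 24.7% of genes. On X the preparations gave the same 12 members at 11-12 h, and at 3-4 h they differed in ND-MNLL alone. In all 4 lists stood 11 of the 12 X-linked members, beside 54.8% of X-linked genes. On chromosomes 2 and 3 it was 4 of the 66, ATPsynF, ND-SGDH, COX7A and COX5A, beside 4.62% of genes.

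H4K16ac on chromosomes 2 and 3 lay over members that also had H3K36me3. At 11-12 h, 25 of the 27 members with H4K16ac on MNase chromatin had H3K36me3 too, and 26 of 26 on sonicated chromatin. At 3-4 h it was 10 of 10 and 35 of 39. Over all genes of these chromosomes the counts at 11-12 h were 1542 of 1653 on MNase chromatin and 2421 of 2545 on sonicated chromatin, and at 3-4 h 965 of 1049 and 3502 of 3832, so this overlap was also high for genes at large.

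At the gene ends of the 66 members, H4K16ac marked both ends of 17 at 11-12 h and 6 at 3-4 h on MNase chromatin, beside 6.77% and 3.94% of genes on chromosomes 2 and 3. On sonicated chromatin it marked both ends of 18 at 11-12 h and 30 at 3-4 h, beside 7.20% and 12.6%. H3K36me3 marked both ends of 42 at 11-12 h and 41 at 3-4 h, beside 36.5% of genes at each age. Counts at both ends followed those over the gene body in their direction with age.

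Some members had a region at 1 end alone. On MNase chromatin H4K16ac marked 1 end of 12 members at 11-12 h and of 7 at 3-4 h, beside 11.4% and 7.93% of genes. On sonicated chromatin it was 10 at 11-12 h and 12 at 3-4 h, beside 17.6% and 23.3%, and for H3K36me3 10 at each age, beside 18.3% at 11-12 h and 17.9% at 3-4 h. Where a member had H4K16ac at 1 end in 2 lists it was the same end: 7 of 7 members between the ages on sonicated chromatin, 2 of 2 on MNase chromatin, 4 of 4 between preparations at 11-12 h and 2 of 2 at 3-4 h. This agreement was not counted over all genes, so it cannot be read as particular to the members.

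ND-42, an accessory subunit gene of complex I (3R, 22027709 to 22029393), had the lower end marked in all 4 H4K16ac lists. Its cover was 58.0% at 11-12 h and 0% at 3-4 h on MNase chromatin, the region at 3-4 h lying just outside the gene, and 57.2% and 58.2% on sonicated chromatin. ND-15, whose entry spans 41305 bp and shares bases with 11 other genes (2L, 114726 to 156030), had its higher end marked on sonicated chromatin at both ages, with 9.11% of the gene covered at 11-12 h and 3.58% at 3-4 h.

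Members' regions on chromosomes 2 and 3 were short. The widest H4K16ac region touching each member had a median of 1506 bp at 11-12 h and 1180 bp at 3-4 h on MNase chromatin, and 2036 bp and 2284 bp on sonicated chromatin. Over all genes there the medians were 1761 bp and 1546 bp, and 1795 bp and 2262 bp. The step in width between ages seen on X at these genes had no counterpart of that size on chromosomes 2 and 3.

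Chromosome 4 holds ND-49, a subunit of the electron-accepting arm of complex I (568296 to 571554), and ATPsynbeta, the catalytic subunit of complex V (1031484 to 1034917). ND-49 had 92.1% H3K36me3 cover at 11-12 h and 86.2% at 3-4 h, H4K16ac over its higher end on sonicated chromatin at 3-4 h, and 0% H4K16ac cover in the other 3 lists. ATPsynbeta had 77.0% and 72.4% H3K36me3, 30.3% and 24.6% H4K16ac on sonicated chromatin, and on MNase chromatin H4K16ac over its lower end at 11-12 h and 0% at 3-4 h. Neither gene had MOF or MSL2, and 0 of the 80 protein-coding genes of chromosome 4 did. H3K36me3 was listed over 66.2% of these 80 genes at 11-12 h and 61.2% at 3-4 h, and H4K16ac over 38.8% and 13.8% on MNase chromatin and 38.8% and 57.5% on sonicated chromatin.

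Most copies had no region in any list. Many fly duplicates of respiratory chain genes are known from earlier work to be expressed mainly in the testis. Of the 21 copies, 14 were in none of the 12 lists, and 7 of these 14 lie inside another gene. The share of all genes in no list was not counted. No H3K36me3 region at either age was listed for 16 of the 21, and for 5403 of 11645 genes on chromosomes 2 and 3. In no H4K16ac list were 17 of the 21, and 7348 of those genes. H3K36me3 lay over 4 copies at 11-12 h and 5 at 3-4 h, against 18 of their 18 counterparts at both ages and beside 51.5% and 50.8% of genes on chromosomes 2 and 3. H4K16ac lay over 4 of the 21 at 11-12 h and 0 at 3-4 h on MNase chromatin, beside 14.2% and 9.01% of those genes, and over 0 and 3 on sonicated chromatin, beside 21.9% and 32.9%. Of the 4, COX7AL2 had 0.223% cover.

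Copies were shorter, with a median of 703 bp against 1178 bp for the other 59 members, and 9 of them lie wholly inside another gene. For 5 of them the counterpart lies on X: ND-20L, ND-24L, ND-B14.5AL, UQCR-14L and ATPsynepsilonL, the last a copy of sun. All of these are in no list, while ND-20, ND-24, ND-B14.5A, UQCR-14 and sun had H4K16ac, H3K36me3 and MOF at 11-12 h. ND-49L and ATPsynbetaL, whose counterparts lie on chromosome 4, are in no list either.

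The 7 copies with a region were the complex IV copies COX4L, COX5BL, COX6AL2, COX7AL, COX7AL2 and COX7CL, and ND-51L1 of complex I. COX5BL starts 123 bp after COX5B and COX7CL 282 bp after COX7C, and each shares its H3K36me3 region with its counterpart, so the 100% cover of these copies at both ages cannot be told apart from that of the neighbour. COX7AL lies within 10 kb of COX7A, and 1 H4K16ac region on MNase chromatin at 11-12 h spans from the one into the other. COX6AL2 (27.8% H3K36me3 at 11-12 h, 31.4% at 3-4 h) and COX7AL2 (7.44% and 4.99%) are reached at their lower end by regions that start over 3 kb before them. COX6AL2 shares bases with Prp6, 100% under H3K36me3 at both ages, and Ir75d, at 55.9% and 63.2%. Its cover cannot be told apart from theirs.

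ND-51L1 (2R, 17595267 to 17597409), inside the ubiquitin ligase gene Smurf, had 0% H3K36me3 at 11-12 h and 74.9% at 3-4 h. Smurf as a whole was 38.8% covered at 11-12 h and 69.5% at 3-4 h, so the region at 3-4 h cannot be assigned to the copy. COX4L (2R, 5353994 to 5354723) had regions that touched no other protein-coding gene: H4K16ac covered 96.8% at 11-12 h and 0% at 3-4 h on MNase chromatin, and 0% and 100% on sonicated chromatin, with no H3K36me3. Its counterpart COX4 had the reverse, full H3K36me3 and no H4K16ac.

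**Figure D5:**
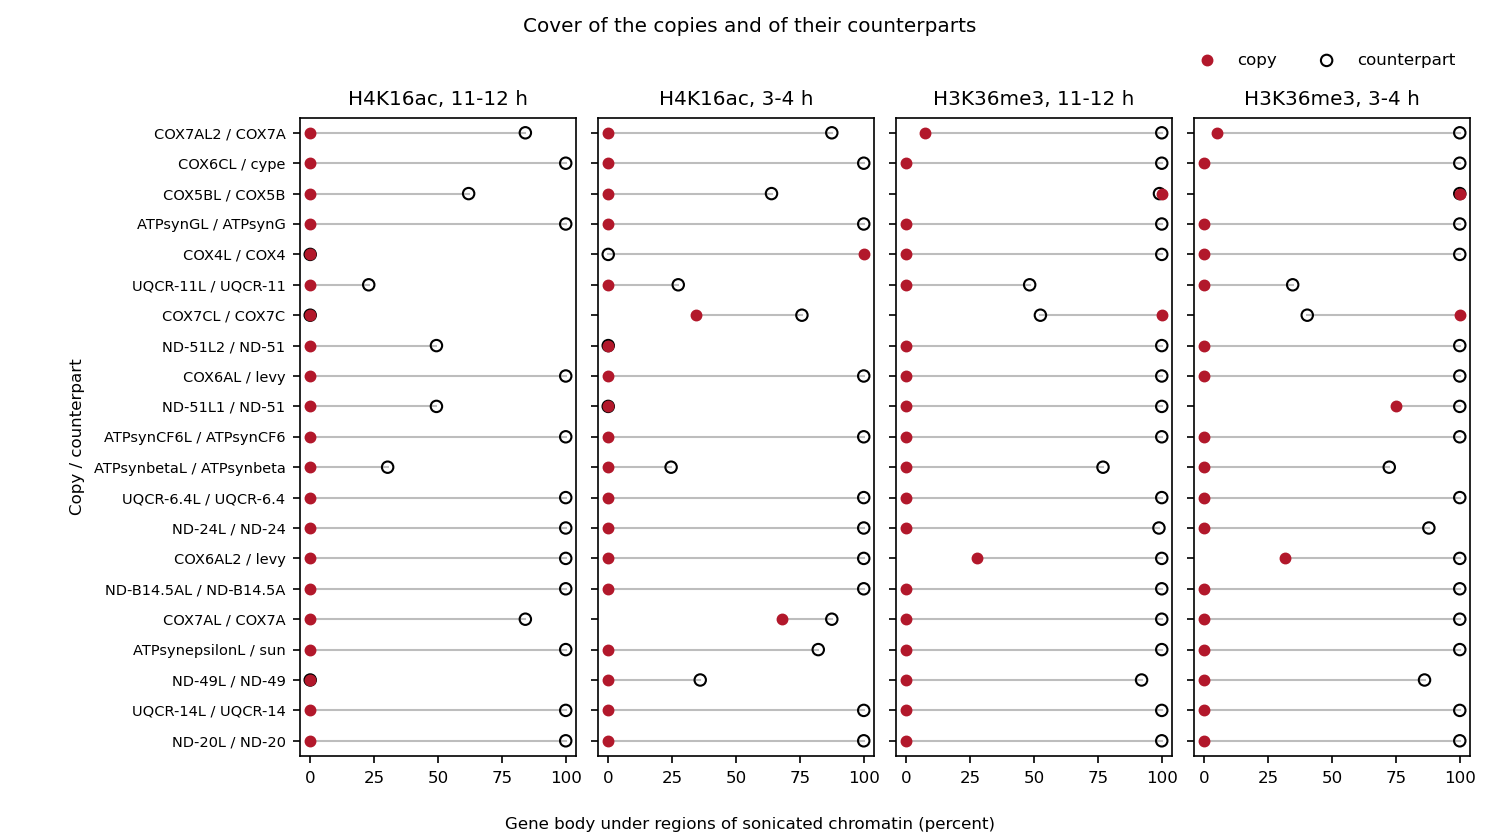
Percent of the gene body under H4K16ac and H3K36me3 regions of sonicated chromatin (x axis) for each of the 21 copies (red) and its counterpart (open circle), joined by a line, at 11-12 h and 3-4 h. Most copies are at 0 in the 4 panels while the counterparts are covered, and COX4L at 3-4 h is the pair in which H4K16ac lies on the copy and not on the counterpart.

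Other genes of the pathway were counted in the same way. Of the subunit genes outside the symbol rule, sun, which encodes the epsilon subunit of complex V and lies on X, had 100% MOF and H3K36me3 cover at both ages. H4K16ac covered 100% of it at 11-12 h and 0% at 3-4 h on MNase chromatin, and 100% and 82.2% on sonicated chromatin. On chromosomes 2 and 3 there are 12 such subunit genes, among them the 4 genes of complex II. On MNase chromatin 5 of the 12 had H4K16ac at 11-12 h and 2 at 3-4 h, beside 14.2% and 9.01% of genes there. On sonicated chromatin 9 had it at each age, beside 21.9% at 11-12 h and 32.9% at 3-4 h. H3K36me3 was listed over 11 at each age, beside 51.5% at 11-12 h and 50.8% at 3-4 h. None of the 12 had MOF. Cyt-c-d, a cytochrome c gene used in the male germ line, was in no list, while its neighbour Cyt-c-p had 27.9% H3K36me3 cover at 11-12 h and 14.1% at 3-4 h.

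Assembly factors and carriers on X are sicily, a complex I assembly factor, and the overlapping adenine nucleotide carrier genes Ant2 and sesB. All 3 had H4K16ac in the 4 lists, beside 54.8% of X-linked genes, and MOF at 11-12 h, beside 54.7%. At 3-4 h sicily alone had MOF, and it alone had H3K36me3, beside 48.5% and 53.8% of X-linked genes. Of 7 on the autosomes, CIA30, a complex I assembly factor, had MOF over 63.2% of the gene at 11-12 h and 0% at 3-4 h. On MNase chromatin H4K16ac lay over 4 of these 7 at 11-12 h and 2 at 3-4 h, beside 14.2% and 9.01% of genes on chromosomes 2 and 3. On sonicated chromatin it lay over 5 and 6, beside 21.9% and 32.9%. H3K36me3 lay over 6 and 4 of the 7, beside 51.5% and 50.8%. Citric acid cycle enzymes on X, kdn, Idh3a and Fum1, had H4K16ac in all 4 lists and MOF at both ages, 20.0% at 11-12 h and 26.0% at 3-4 h for the citrate synthase gene kdn. Fum1 had 0% H3K36me3 cover at 3-4 h. Of the 8 on the autosomes 1, Idh3g, had MOF, over 20.2% of the gene at 11-12 h and 0% at 3-4 h. MOF was listed over 1.22% of genes on chromosomes 2 and 3 at 11-12 h and 0.395% at 3-4 h. H4K16ac lay over 2 of the 8 at 11-12 h and 1 at 3-4 h on MNase chromatin, beside 14.2% and 9.01% of those genes. On sonicated chromatin it lay over 2 and 4 of the 8, beside 21.9% and 32.9%. Mdh2, the mitochondrial malate dehydrogenase gene, and Sirup, a complex II assembly factor, were in no list.

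How strictly a region was counted moved some shares by over 1.5 times. With the widest 50% of each list alone, H4K16ac on MNase chromatin was left on 15.2% of the 66 members at 11-12 h and 4.55% at 3-4 h, against 40.9% and 15.2% with all regions, and H3K36me3 at 3-4 h on 41.7% of the X-linked members against 91.7%.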

How the data were processed

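Embryo ChIP-seq regions were used as deposited by the authors, as 12 lists that hold start and end coordinates and no other value. Per the submitters' processing notes, Bowtie2 2.2.9, SAMtools, HOMER and the build dm6 were used. How regions were called, and how inputs and samples were used for this, is not given in the sources used here. Samples were grouped by antibody, preparation and age from their titles.

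Gene positions came from a RefSeq table of the same assembly. Cover and overlap of at least 1 bp were computed in Python 3.11.15 with numpy 2.4.6 and pandas 2.3.3, and shares carry Wilson 95% intervals from scipy 1.17.1. The code was tested on simulated data and gave the base-by-base answer in 20 of 20 simulations. No value per sample was used here, so no test was made. The members, the lists of other pathway genes and the named genes (all on X and 4; on 2 and 3 the most covered, those most changed between ages, those lacking H3K36me3, and copies beside counterparts) were chosen with earlier results of these data known. ATPsynepsilonL, COX6AL and COX6CL were paired with sun, levy and cype through synonyms in the table; ND-MNLL ends in L and is no copy. Genes singled out beyond this rule were chosen after their values were seen. No sequence was used here.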

Additional observations from a re-analysis of the deposited data

Results flagged for a closer look

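The direction between ages was opposite in the 2 preparations of H4K16ac for members on chromosomes 2 and 3. On MNase chromatin, the number with a region at 11-12 h minus that at 3-4 h was 17 (27 against 10 of 66). On sonicated chromatin it was -13 (26 against 39 of 66). Over all genes of these chromosomes the shares ran the same ways, 14.2% at 11-12 h against 9.01% at 3-4 h on MNase chromatin and 21.9% against 32.9% on sonicated chromatin. The difference between the preparations was not tested, since each age and preparation has 1 list.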

How the results depend on the processing

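Of the recomputed shares of members with H4K16ac or H3K36me3, and with MOF on X, 42 stayed within the Wilson 95% interval of the share reported and 20 moved out of it. The cause was not tested. That interval covers counting error only, while all or part of the same genes were recounted, and on X it is wide. With the widest 50% of regions, H3K36me3 at 11-12 h counts as staying on X at 66.7% against 91.7%. Of the other recomputed values, on gene ends, median cover, MSL2 and autosomal MOF, 82 stayed and 16 moved. Members sharing no base with another gene was an alternative chosen after seeing the data (3 on X, 36 on chromosomes 2 and 3). With 1000 bp added on both sides, X-linked shares reached 100% for H4K16ac on MNase chromatin at 3-4 h and for H3K36me3 at both ages; among members sharing no base they were 100% for these and for MOF at 3-4 h. With the widest 50% of regions, X-linked shares were 66.7% for MOF at 11-12 h and 41.7% for H3K36me3 at 3-4 h. On chromosomes 2 and 3 that setting gave 15.2% at 11-12 h and 4.55% at 3-4 h for H4K16ac on MNase chromatin, 33.3% on sonicated chromatin at 3-4 h, and 50.0% and 42.4% for H3K36me3. Asking for at least 50% of the gene body gave 25.8% for H4K16ac on MNase chromatin at 11-12 h and 45.5% on sonicated chromatin at 3-4 h. Without the copies the shares were 57.8% at 11-12 h and 80.0% at 3-4 h for H4K16ac on sonicated chromatin, and 100% and 95.6% for H3K36me3.

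No paired analysis was possible because each list stands for all samples of its group, and leaving out samples was not run for the same reason. No COX gene numbered 10 or higher is in the table, so leaving those out gave no value.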

Other observations

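The mitochondrial chromosome, which carries 13 protein-coding genes of the same complexes, held regions too. Mononucleosomal MSL2 had 1 region there at 11-12 h that touched no protein-coding gene, and 2 at 3-4 h, over ND2 and COX1 and over ND5, ND4, ND4L, ND6, CYTB and ND1. H4K16ac on sonicated chromatin had 1 region at 3-4 h that touched no protein-coding gene. What these regions reflect was not tested, and they are not read here as binding or acetylation at the mitochondrial genes.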
